A study of Mus musculus with 9 samples.

Results

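The response of the mouse jejunum to 24 h of starvation was read from poly(A)-selected bulk RNA-seq of 3 starvation libraries and 3 sham libraries, 6 of the 9 libraries of a series on nutrient supply to the gut. Each library came from 5 cm of jejunum that had been cut open along its length, and markers of epithelium, stroma, immune cells and muscle were all detected. The remaining 3 libraries came from mice given total parenteral nutrition (TPN, feeding into the blood), also for 24 h; they entered the estimate of the spread between libraries and a direct comparison that is named wherever it is used. Libraries were assigned by their treatment label, and all genes were described. The sources used here do not give strain, sex, age, the sham procedure or the feeding of the sham group. The libraries are labelled as biological replicates, but nothing says that each is a separate mouse, so p-values measure the spread between these libraries, which may be in part technical.

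When food is withheld, insulin falls and glucocorticoids rise, and tissues turn from glucose to fatty acids, ketone bodies and amino acids. In the intestine this change comes together with the loss of luminal food itself, which supplies nutrients, dietary ligands of the aryl hydrocarbon receptor and part of the stimulus for epithelial renewal. Transcription factors that are well known from the liver include the glucocorticoid receptor, PPAR alpha, FOXO proteins and the metal-responsive factor MTF1. Their activity in the jejunum was not measured here.

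The 6 libraries held 9111665 to 12084278 reads assigned to genes, and the 3 TPN libraries 7779877 to 11421969, so that 1 read was worth 0.0798 to 0.119 CPM, the count scaled to a fixed library total. Expression below is given in CPM scaled by TMM factors. Enterocyte markers were the highest marker set in all 6 libraries, with a mean log2 CPM of 10.3 to 11.4. Sham replicate 2 and starvation replicate 3 stood apart. The 13 smooth muscle markers had a mean log2 CPM of 5.97, 9.08 and 6.14 in sham replicates 1 to 3 and 5.54, 5.30 and 6.21 in starvation replicates 1 to 3, so the high library was sham replicate 2. The villus tip markers were highest in starvation replicate 3 (7.77, 8.27 and 9.67 in starvation, 8.47, 9.14 and 8.41 in sham), which was also lowest in crypt stem cell markers (5.06, 4.88 and 3.51 in starvation, 5.29, 4.67 and 5.13 in sham). B and plasma cell markers were high in starvation replicates 1 and 2 and lowest in replicate 3 (5.55, 5.29 and 1.74, against 3.52, 2.17 and 3.31 in sham). Pancreatic acinar markers were high in sham replicate 1 and starvation replicate 1 alone. Every result was therefore recomputed without sham replicate 2 and starvation replicate 3. In bulk tissue, fewer cells of a type and less RNA per cell cannot be told apart.

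**Figure D1:**
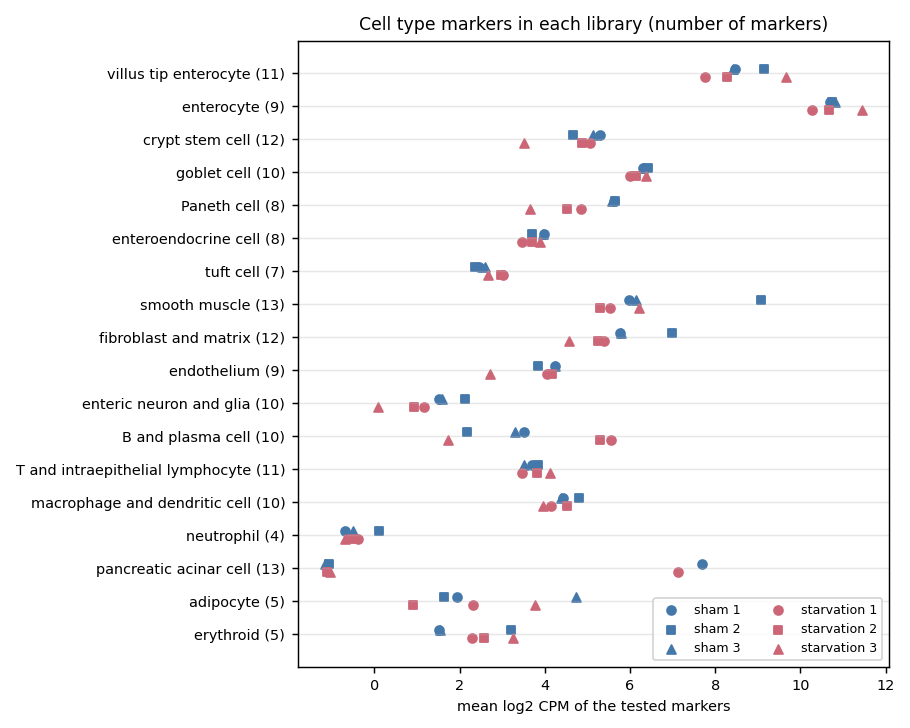
Mean log2 CPM (horizontal axis) of 18 sets of cell type markers in the 3 sham (blue) and 3 starvation (red) libraries, with the number of markers tested in brackets and symbols for replicates 1 to 3. Sham replicate 2 lies far to the right for smooth muscle, and starvation replicate 3 lies lowest for crypt stem cell, endothelium and fibroblast markers and highest for villus tip markers.

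Of 14668 genes tested, 374 were higher (2.55%) and 167 lower (1.14%) in starvation than in sham at an adjusted p under 0.05, 541 in all (3.69%; edgeR quasi-likelihood test, Benjamini-Hochberg adjustment), and 257 and 103 of these changed at least 2-fold. The median log2 fold change over all genes tested was -0.008. The 3 starvation values lay entirely above or below the 3 sham values for all 541 called genes, and for 25.1% of all genes tested. For a called gene, groups that do not overlap are therefore no further evidence. Without sham replicate 2 and starvation replicate 3, 2949 of 14855 genes (19.9%) were called, 1612 higher (10.9%) and 1337 lower (9.0%). That set contained 372 of the 374 higher and all 167 lower genes, and the median over all genes was 0.012. No called gene changed sign, but groups that do not overlap can hardly reverse when libraries are left out. This is therefore no separate evidence on direction. The number of calls depended strongly on the libraries in the fit. The common biological coefficient of variation was 0.314 with all 9 libraries, 0.187 without those 2 libraries and 0.338 with only the 6 sham and starvation libraries, where 2 genes passed, Mt2 and Fkbp5. Leaving out any single library gave 32 to 1739 calls, and 28 genes were called in all 9 of these fits. Of the 74 called genes that are named below by rule, 13 kept their call in all 9 and 41 lost it in at least 5. The libraries left out were known to stand apart, and their removal lowers the spread, so the larger count is given beside the smaller and not in its place.

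**Figure D2:**
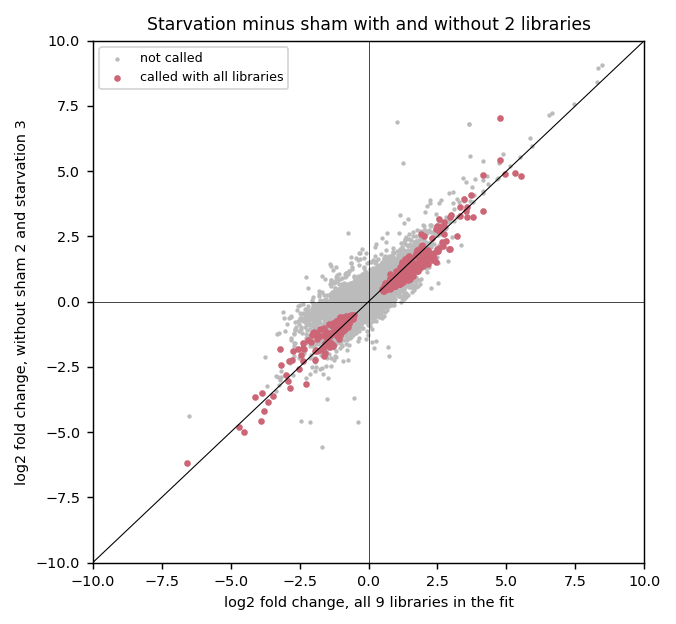
Log2 fold change of each gene, starvation minus sham, in the fit with all 9 libraries (horizontal axis) and without sham replicate 2 and starvation replicate 3 (vertical axis). Red points are the 541 genes called with all libraries, and every one that was tested in both fits has the same sign in both. The diagonal marks equal values.

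The largest rises among well-expressed genes were in the metallothioneins, small cysteine-rich proteins that bind zinc and copper. Mt2 stood at 7.95, 2.67 and 4.75 CPM in sham and 162, 197 and 357 in starvation. Mt1 stood at 20.9, 16.96 and 21.99 CPM in sham and 249, 230.1 and 596 in starvation. No starvation library approached a sham library for either gene, and starvation replicate 3 was highest for both. The log2 fold change was 5.54 ± 0.44 for Mt2 (adjusted p = 0.0022) and 4.17 ± 0.40 for Mt1 (adjusted p = 0.00577), and without the 2 libraries that stood apart 4.83 ± 0.22 and 3.48 ± 0.21. Both calls held in each of the 9 fits that left out 1 library. Among the zinc transporters, Slc39a4, the main importer of dietary zinc at the brush border, moved the other way. Slc39a4 stood at 218, 258 and 233 CPM in sham and 75.1, 67.9 and 150.1 in starvation, with a log2 fold change of -1.28 ± 0.28 (adjusted p = 0.0405), and it lost its call in 8 of the 9 leave-one-out fits (adjusted p up to 0.123). Among 14 metallothionein and zinc transporter genes, the numbers called higher and lower were 2 and 1 (median log2 fold change 0.20), and in the fit without sham replicate 2 and starvation replicate 3 they were 4 and 2 (median 0.13). Over all genes, 2.55% rose and 1.14% fell in the first fit, and 10.9% and 9.0% in the second. In this build Mt2 (chr8:94172664-94173568, plus strand) shares 73.5% of its exonic bases with an antisense gene, and no source used here says whether reads were counted by strand; Mt1 (chr8:94179082-94180327, plus strand) shares none.

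The promoters of both genes are shown because MTF1 acts on them through metal response elements. The motif searched, on both strands, was TGCACNC or TGCGCNC, and capitals mark its matches, which were 4 in Mt2 and 3 in Mt1. Windows run from 250 bases before to 50 after the RefSeq transcription start (GRCm38.p6, 5′ to 3′ on the plus strand), at chr8:94172368-94172667 for Mt2 and chr8:94178839-94179138 for Mt1.
Mt2: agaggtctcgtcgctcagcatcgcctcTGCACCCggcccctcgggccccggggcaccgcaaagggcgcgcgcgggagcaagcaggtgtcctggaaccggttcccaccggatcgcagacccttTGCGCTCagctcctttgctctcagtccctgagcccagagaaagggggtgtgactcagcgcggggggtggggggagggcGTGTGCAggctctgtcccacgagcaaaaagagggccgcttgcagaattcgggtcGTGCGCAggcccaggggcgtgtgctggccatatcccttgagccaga
Mt1: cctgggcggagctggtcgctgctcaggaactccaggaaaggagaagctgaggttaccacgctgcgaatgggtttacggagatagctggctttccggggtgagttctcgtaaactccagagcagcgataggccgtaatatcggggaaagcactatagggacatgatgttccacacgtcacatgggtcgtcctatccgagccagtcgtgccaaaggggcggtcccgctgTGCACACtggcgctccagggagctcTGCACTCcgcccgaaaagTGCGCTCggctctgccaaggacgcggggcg
At least 1 match lay in 39.2% of the 11367 genes searched and in 9 of the 12 list genes that had a promoter. The presence of a single match is therefore common. A match is a description of the letters in this window, not a site shown to be used.

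Several genes of the glucocorticoid response rose. The share of all genes that rose was 2.55%, and 10.9% without sham replicate 2 and starvation replicate 3. With all libraries 6 of 20 genes of this list rose and none fell, and without the pair that stood apart 9 rose and none fell; the medians of the log2 fold change were 0.16 and 0.35. Fkbp5 stood at 19.3, 12.3 and 14.99 CPM in sham and 166, 162 and 226 in starvation. The lowest starvation library was well above the highest sham library. Fkbp5 (chr17:28399094-28517527, minus strand) encodes a co-chaperone that damps the glucocorticoid receptor, and its log2 fold change of 3.57 ± 0.23 had the smallest adjusted p of all genes (0.0005). Zbtb16, a zinc finger transcription factor, stood at 1.08, 2.88 and 1.75 CPM in sham and 16.04, 15.8 and 34.02 in starvation (3.53 ± 0.40, adjusted p = 0.00744). The kinase gene Sgk1 gave 158, 139 and 142 CPM in sham and 499.6, 642 and 1301 in starvation (2.47 ± 0.33, adjusted p = 0.0105). All 3 had groups far apart, and starvation replicate 3 was highest for each. Fkbp5 and Zbtb16 kept their calls whichever library was left out, and Sgk1 lost its call without sham replicate 3 (adjusted p = 0.0585). The other called members were Klf15 (1.85), a regulator of amino acid breakdown, Per1 (1.20), and Tsc22d3 (0.92), which encodes the anti-inflammatory protein GILZ. Tsc22d3 did not keep its call in all 9 leave-one-out fits. All 6 were also called without sham replicate 2 and starvation replicate 3, but of the 9 leave-one-out fits Klf15 lost its call in 5 and Per1 in 7 (adjusted p up to 0.0909 and 0.0828).

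PPAR alpha targets rose in part. As a reference, 2.55% of all genes rose and 1.14% fell, and 10.9% and 9.0% did without the 2 libraries that stood apart. Of the 32 PPAR alpha targets and fatty acid oxidation genes tested, 3 rose and none fell, with a median log2 fold change of 0.12. The counts became 7 and 5 without the 2 libraries that stood apart, with a median of -0.11. Angptl4 stood at 9.82, 7.47 and 11.7 CPM in sham and 45.6, 62.6 and 98.5 in starvation. This inhibitor of lipoprotein lipase rose by 2.82 ± 0.29 on the log2 scale (adjusted p = 0.00577) with no overlap between groups, and its call held in all 9 fits with a library left out. Pdk4, a kinase that holds back the oxidation of pyruvate, stood at 44.8, 52.5 and 49.6 CPM in sham and 121, 174 and 329.5 in starvation (2.09 ± 0.32, adjusted p = 0.0147). Starvation replicate 3 was highest for Angptl4 and Pdk4. Pdk4 lost its call in 3 of the 9 leave-one-out fits (adjusted p up to 0.0708). A widely used readout of the pathway did not pass: Cpt1a, which admits long-chain fatty acids to mitochondria, had a log2 fold change of -0.22 ± 0.32 (adjusted p = 0.707).

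Pck1, Klf15, Bcl6 and Insr, which insulin represses or FOXO proteins induce, rose. Across all genes tested 2.55% rose, and 10.9% did without sham replicate 2 and starvation replicate 3. Among 24 insulin signalling and FOXO genes, the numbers called higher and lower were 4 and 0 (median log2 fold change 0.13), and in the fit without sham replicate 2 and starvation replicate 3 they were 6 and 0 (median 0.08). Pck1 stood at 230.5, 330.0 and 419 CPM in sham and 603, 972 and 2009 in starvation. This gene encodes the cytosolic enzyme that starts gluconeogenesis from oxaloacetate, and its lowest starvation library still exceeded the highest sham library (1.87 ± 0.41, adjusted p = 0.0422). The transcriptional repressor Bcl6 gave 11.6, 9.5 and 8.08 CPM in sham and 21.8, 25.5 and 22.9 in starvation (1.27 ± 0.18, adjusted p = 0.0105). The insulin receptor gene Insr gave 79.3, 67.6 and 72.6 CPM in sham and 103, 116 and 138 in starvation (0.70 ± 0.16, adjusted p = 0.0463). Neither pair of groups overlapped. Pck1 lost its call in 7 of the 9 leave-one-out fits (adjusted p up to 0.113), Bcl6 in 2 of the 9 leave-one-out fits (adjusted p up to 0.0574) and Insr in 7 of the 9 leave-one-out fits (adjusted p up to 0.124). G6pc, which releases free glucose, was at 0.40 (adjusted p = 0.356), and Irs2 and Txnip were at 0.52 and -0.08 (adjusted p = 0.262 and 0.84). In the list of glutamine, citrulline and polyamine enzymes, Glud1 was the called gene. Glud1 stood at 304, 357 and 382 CPM in sham and 799, 1097 and 1166 in starvation (1.55 ± 0.20, adjusted p = 0.00958), and it lost its call without sham replicate 3 (adjusted p = 0.0523). Glud1 encodes glutamate dehydrogenase, which feeds glutamate carbon into the citric acid cycle.

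With all libraries none of 26 ATF4 target genes rose and none fell, and without the pair that stood apart 2 rose and 1 fell; the medians of the log2 fold change were 0.15 and 0.16. Of the 32 autophagy and lysosome genes tested, none rose and none fell, with a median log2 fold change of 0.00. The counts became 1 and 3 without the 2 libraries that stood apart, with a median of -0.01. In that fit 10.9% of all genes rose and 9.0% fell, and with all libraries 2.55% and 1.14% did. Asns, the standard ATF4 target, was low in all 6 libraries, at 6.28, 3.2 and 6.0 CPM in sham and 7.1, 6.86 and 3.24 in starvation (adjusted p = 0.879), and Sqstm1, an autophagy receptor, had a log2 fold change of -0.17 ± 0.23 (adjusted p = 0.685). Outside the lists and chosen after their values were seen, Flcn and Slc38a9, whose products act in amino acid sensing by mTORC1 at the lysosome, both rose. Slc38a9 stood at 7.56, 8.32 and 7.5 CPM in sham and 18.1, 19.8 and 17.4 in starvation (1.24 ± 0.17, adjusted p = 0.0105), and Flcn stood at 13.3, 17.1 and 13.00 CPM in sham and 28.2, 26.7 and 35.98 in starvation (1.07 ± 0.21, adjusted p = 0.0311). Neither gene's groups overlapped, but neither gene kept its call in all 9 leave-one-out fits. Ddit4, an inhibitor of mTORC1 induced by glucocorticoids and stress, gave 28.1, 30.1 and 26.2 CPM in sham and 60.6, 53.7 and 34.1 in starvation. It did not pass with all libraries (0.82 ± 0.21, adjusted p = 0.0628) and passed without the 2 that stood apart (1.08 ± 0.14, adjusted p = 0.00166).

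The clock repressors Per1, Per3, Ciart and Cry2 rose, where 2.55% of all genes did, and 10.9% without sham replicate 2 and starvation replicate 3. Among 20 clock genes, the numbers called higher and lower were 4 and 0 (median log2 fold change 0.29), and in the fit without sham replicate 2 and starvation replicate 3 they were 6 and 1 (median 0.29). Ciart stood at 1.57, 1.49 and 1.67 CPM in sham and 5.58, 6.12 and 12.96 in starvation. Per3 stood at 28.8, 20.2 and 29.4 CPM in sham and 47.6, 56.2 and 71.7 in starvation. Per1 stood at 29.1, 34.5 and 34.99 CPM in sham and 55.8, 70.8 and 99.97 in starvation. In all 3 the groups were separate, with starvation replicate 3 highest. The log2 fold changes were 2.37 ± 0.41, 1.16 ± 0.20 and 1.20 ± 0.21 (adjusted p = 0.0225, 0.0216 and 0.0246), and that of Cry2 was 0.98 ± 0.23 (adjusted p = 0.0489). The activator Arntl was at 0.74 ± 0.34 (adjusted p = 0.227) and the output gene Dbp at -0.09 ± 0.29 (adjusted p = 0.88), neither past the threshold. All 4 were also called without sham replicate 2 and starvation replicate 3, but of the 9 leave-one-out fits Per1 and Cry2 lost their calls in 7, Ciart in 6 and Per3 in 4 (adjusted p up to 0.0828, 0.133, 0.0828 and 0.0722). No source used here gives the hour at which each tissue was taken, and its part in these values was not tested.

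Slc7a15 and Slc6a20a, of the peptide digestion and amino acid transport genes, rose. Over all genes tested 2.55% rose, and 10.9% did without sham replicate 2 and starvation replicate 3. With all libraries 2 of 28 peptidase and amino acid transporter genes rose and none fell, and without the pair that stood apart 6 rose and none fell; the medians of the log2 fold change were 0.40 and 0.28. Slc7a15 stood at 193, 199.7 and 208 CPM in sham and 328, 442 and 810.1 in starvation (1.40 ± 0.30, adjusted p = 0.039). The imino acid transporter gene Slc6a20a gave 346, 211 and 339.8 CPM in sham and 553, 642 and 729 in starvation (1.10 ± 0.24, adjusted p = 0.0393). Neither overlapped between groups, though each is an enterocyte gene and was highest in the villus-rich starvation replicate 3; without it and sham replicate 2 the log2 fold changes were 0.94 ± 0.17 and 0.80 ± 0.16, both still called. Each lost its call in 7 of the 9 leave-one-out fits (adjusted p up to 0.111). The peptide transporter Slc15a1 was at 0.99 ± 0.41 (adjusted p = 0.188), the sodium-glucose transporter Slc5a1 at 0.29 ± 0.26 (adjusted p = 0.524) and sucrase-isomaltase, Sis, at -0.19 ± 0.20 (adjusted p = 0.613). Their groups overlapped. Of the 20 carbohydrate digestion genes tested, 1 rose and none fell, with a median log2 fold change of 0.26. The counts became 1 and 2 without the 2 libraries that stood apart, with a median of -0.07. The called member was Pck1, the gluconeogenic gene given above, and with all libraries no sugar transporter or disaccharidase gene was called. Cubn, which encodes the receptor for cobalamin bound to intrinsic factor, was among the 15 largest rises, at 23.4, 52.9 and 50.5 CPM in sham and 103, 188 and 282 in starvation (2.17 ± 0.41, adjusted p = 0.0298), and it lost its call in 7 of the 9 fits (adjusted p up to 0.0863).

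Abcg8 rose, and Plin2, Hmgcs1 and Insig1 fell, among the lipid genes (3.69% of all genes tested were called). Without sham replicate 2 and starvation replicate 3, 10.9% of all genes rose and 9.0% fell. Among 31 lipid absorption genes, the numbers called higher and lower were 1 and 1 (median log2 fold change 0.03), and in the fit without sham replicate 2 and starvation replicate 3 they were 2 and 8 (median -0.33). Plin2, which coats lipid droplets, fell: 65.3, 71.7 and 72.6 CPM in sham and 42.3, 46.9 and 49.6 in starvation (-0.59 ± 0.12, adjusted p = 0.0323). Abcg8, part of the sterol exporter at the brush border, rose, from 159, 134 and 180.3 CPM in sham to 239, 297 and 447 in starvation (1.05 ± 0.25, adjusted p = 0.0488). Apob and Apoa4, which build chylomicrons, overlapped widely between groups (0.41 ± 0.37 and 0.00 ± 0.56, adjusted p = 0.538 and 0.998). With all libraries none of 25 cholesterol synthesis and uptake genes rose and 2 fell, and without the pair that stood apart none rose and 8 fell; the medians of the log2 fold change were -0.34 and -0.42. The called members were Hmgcs1 (-0.72 ± 0.14, adjusted p = 0.0311), an early enzyme of the pathway, and Insig1 (-0.75 ± 0.16, adjusted p = 0.0355), a sterol sensor of the endoplasmic reticulum. Of the 9 leave-one-out fits, Plin2 and Insig1 lost their calls in 8, and Abcg8 and Hmgcs1 in 7 (adjusted p up to 0.108, 0.124, 0.118 and 0.0957). Of the 20 fatty acid synthesis genes tested, none rose and none fell, with a median log2 fold change of -0.33. The counts became 0 and 6 without the 2 libraries that stood apart, with a median of -0.42. Fasn ranged from 52.8 to 359 CPM within the sham group alone, and its log2 fold change of -1.44 ± 0.59 did not pass (adjusted p = 0.183). Adipocyte markers were also highest in sham replicate 3 (mean log2 CPM 4.73), and their part in the Fasn values was not tested. Cyp27a1, a sterol 27-hydroxylase chosen after its values were seen, rose from 46.5, 61.2 and 62.9 CPM in sham to 164, 220.4 and 379.9 in starvation (2.16 ± 0.30, adjusted p = 0.0105). Cyp27a1 did not keep its call in all 9 leave-one-out fits.

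Cyp1a1, the inducible monooxygenase that serves as the classical target of the aryl hydrocarbon receptor, had the largest fall among well-expressed genes. Cyp1a1 stood at 292, 281 and 331 CPM in sham and 15.6, 10.7 and 33.9 in starvation. The lowest sham library was far above the highest starvation library. The log2 fold change was -3.91 ± 0.41 (adjusted p = 0.00577), it was -4.56 ± 0.21 without the 2 libraries that stood apart, and the call held whichever library was left out. Its promoter is shown because the receptor acts through the core GCGTG, searched on both strands and marked in capitals (Cyp1a1 gene body at chr9:57687928-57703824, plus strand in the GENCODE annotation, window chr9:57697363-57697662, RefSeq, GRCm38.p6).
Cyp1a1: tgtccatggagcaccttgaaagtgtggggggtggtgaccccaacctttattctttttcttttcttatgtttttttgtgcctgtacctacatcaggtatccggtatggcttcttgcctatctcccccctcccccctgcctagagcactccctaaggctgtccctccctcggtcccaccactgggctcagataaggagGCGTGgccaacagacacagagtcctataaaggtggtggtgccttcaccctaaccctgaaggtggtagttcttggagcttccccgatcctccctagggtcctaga
The window of 300 bases held 1 match. Of all genes searched 53.2% held at least 1, and so did 5 of the 7 listed target genes with a promoter. The well-known enhancer of Cyp1a1 lies farther upstream than this window. Beside the counts that follow, 2.55% of all genes rose and 1.14% fell, and 10.9% and 9.0% did without the 2 libraries. Among 9 aryl hydrocarbon receptor targets, the numbers called higher and lower were 0 and 1 (median log2 fold change -0.40), and in the fit without sham replicate 2 and starvation replicate 3 they were 0 and 2 (median -0.26). Among other enzymes of foreign compound metabolism, Ces2a, a carboxylesterase, fell by 1.17 ± 0.18 on the log2 scale (adjusted p = 0.0141), and Cyp2c55 fell by 1.04 ± 0.20 (adjusted p = 0.0312). Ces2a lost its call without sham replicate 3 (adjusted p = 0.0657) and Cyp2c55 in 7 of the 9 leave-one-out fits (adjusted p up to 0.106). Cyp3a11, the main intestinal Cyp3a enzyme, ranged from 650.4 to 2071 CPM in starvation and did not pass (1.36 ± 0.44, adjusted p = 0.113). With all libraries none of 32 genes of xenobiotic metabolism rose and 2 fell, and without the pair that stood apart 3 rose and 10 fell; the medians of the log2 fold change were 0.16 and -0.19. Of the 23 glutathione and NRF2 target genes tested, none rose and none fell, with a median log2 fold change of -0.23. The counts became 1 and 11 without the 2 libraries that stood apart, with a median of -0.40.

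Some genes of protein folding and breakdown fell. The share of all genes that fell was 1.14%, and 9.0% without sham replicate 2 and starvation replicate 3. Among 30 cytosolic chaperone genes, the numbers called higher and lower were 0 and 6 (median log2 fold change -0.58), and in the fit without sham replicate 2 and starvation replicate 3 they were 1 and 13 (median -0.44). The called genes were Hspa4 and Hsph1, nucleotide exchange factors of HSP70, Ahsa1, Cacybp and Fkbp4, partners of HSP90, and Hspe1, the mitochondrial co-chaperonin. Hspa4 stood at 93.2, 86.4 and 103 CPM in sham and 58.4, 51.8 and 51.5 in starvation. Hsph1 stood at 27.98, 36.5 and 26.7 CPM in sham and 18.2, 9.82 and 8.68 in starvation. The groups were separate for both (-0.81 ± 0.12 and -1.30 ± 0.27, adjusted p = 0.0159 and 0.0355). The strongly stress-inducible genes Hspa1a and Hspa1b were low in all 6 libraries and did not pass (-0.59 ± 0.42 and -0.93 ± 0.39, adjusted p = 0.417 and 0.188). The motif GAANNTTC, a pair of facing units bound by heat shock factor, was found on either strand in 12 of 25 listed genes with a promoter and in 7.18% of all 11367 genes searched. Of the 6 called genes 3 held it, Fkbp4, Hspe1 and Hsph1. The Hspe1 promoter (chr1:55087898-55088197, RefSeq, GRCm38.p6) is shown with the matches in capitals.
Hspe1: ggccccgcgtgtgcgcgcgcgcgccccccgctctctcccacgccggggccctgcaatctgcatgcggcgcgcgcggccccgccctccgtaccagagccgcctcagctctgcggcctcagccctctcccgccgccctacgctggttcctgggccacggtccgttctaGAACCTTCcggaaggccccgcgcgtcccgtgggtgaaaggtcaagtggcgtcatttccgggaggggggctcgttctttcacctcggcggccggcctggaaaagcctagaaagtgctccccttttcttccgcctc
With all libraries none of 24 genes of folding in the endoplasmic reticulum rose and 3 fell, and without the pair that stood apart 1 rose and 15 fell; the medians of the log2 fold change were -0.38 and -0.45. Calr stood at 602, 416 and 618 CPM in sham and 309, 283 and 225 in starvation. This lectin chaperone changed by -1.0 ± 0.20 (adjusted p = 0.0339), and its partner Pdia3, a disulfide isomerase, by -1.03 ± 0.15 (adjusted p = 0.0141). Hspa5, the HSP70 of this compartment, was at -0.78 ± 0.22 and passed only without the 2 libraries (adjusted p = 0.0801 with all and 0.0025 without). Of the 31 proteasome subunit genes tested, none rose and 3 fell, with a median log2 fold change of -0.28. The counts became 2 and 10 without the 2 libraries that stood apart, with a median of -0.26. The called subunits were Psmd2, Psmc3 and Psmb4, at log2 fold changes of -0.79, -0.89 and -0.84. Hspa4 lost its call without sham replicate 3 (adjusted p = 0.078) and without starvation replicate 2 (adjusted p = 0.0722), Hsph1 in 7 of the 9 leave-one-out fits (adjusted p up to 0.12), Calr in 6 of the 9 leave-one-out fits (adjusted p up to 0.112) and Psmb4 in 8 of the 9 leave-one-out fits (adjusted p up to 0.156). Pdia3 lost its call in 2, Psmd2 in 4 and Psmc3 in 6 of these fits (adjusted p up to 0.0657, 0.0828 and 0.0803). Ahsa1 and Cacybp lost their calls in 8 and Hspe1 in 7 (adjusted p up to 0.118, 0.0852 and 0.122), and Fkbp4 did not keep its call in all 9. With library totals in place of TMM scaling, Hspa4, Hsph1, Ahsa1, Cacybp, Hspe1, Calr and Psmc3 lost their calls. Pdia3, Psmd2 and Psmb4 kept theirs.

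**Figure D3:**
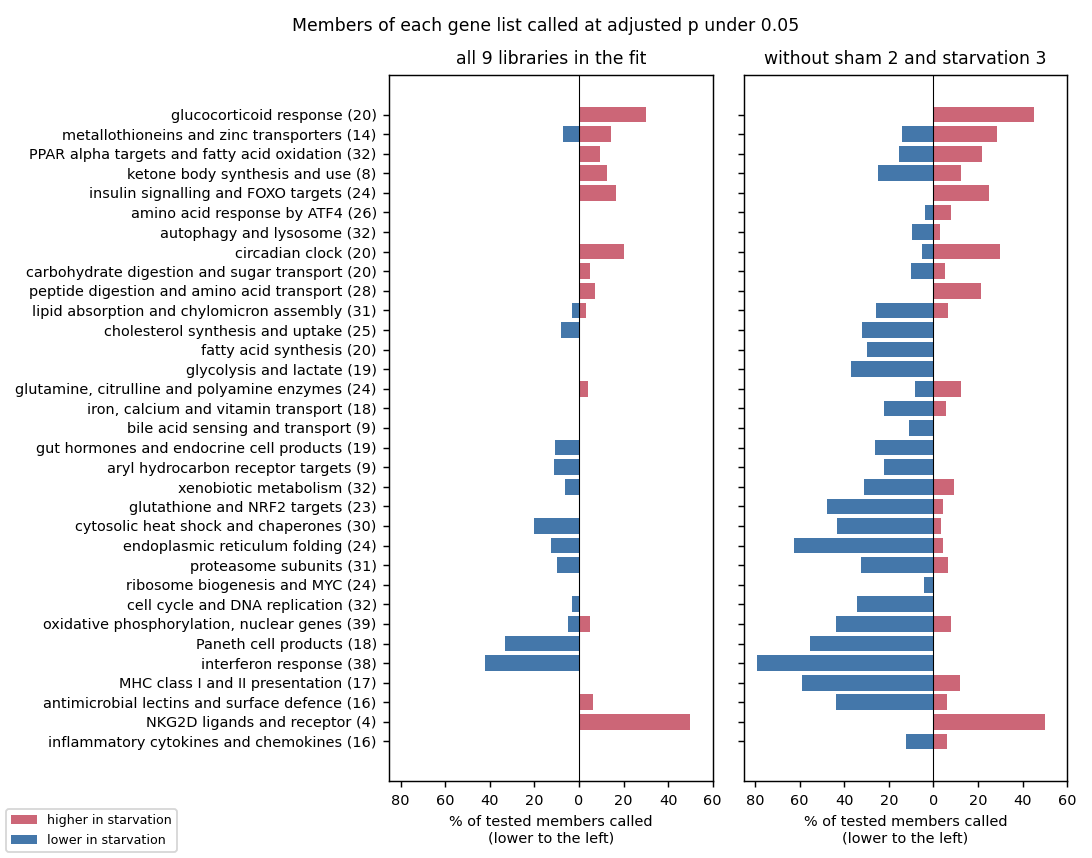
Percentage of the tested members of each of 33 gene lists that were called higher (red, to the right) or lower (blue, to the left) in starvation, with all 9 libraries in the fit (first panel) and without sham replicate 2 and starvation replicate 3 (second panel); numbers in brackets are members tested. Interferon response and Paneth cell products reach farthest to the left with all libraries, and glucocorticoid response, clock and the 4 NKG2D genes farthest to the right; over all genes 2.55% rose and 1.14% fell in the first fit and 10.9% and 9.0% in the second.

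Among the lists with more than 10 members tested, interferon response genes had the highest share called lower. Among 38 interferon response genes, the numbers called higher and lower were 0 and 16 (median log2 fold change -1.0), and in the fit without sham replicate 2 and starvation replicate 3 they were 0 and 30 (median -1.12). No member rose in either fit. Over all genes 1.14% fell in the first fit and 9.0% in the second. Ifi47 stood at 113, 118 and 120.5 CPM in sham and 38.4, 42.3 and 49.2 in starvation. This interferon-inducible GTPase had groups far apart and tight (-1.44 ± 0.15, adjusted p = 0.00577). Ifitm3, which blocks entry of viruses through membranes, gave 26.2, 67.96 and 30.9 CPM in sham and 5.11, 7.18 and 6.13 in starvation (-2.76 ± 0.35, adjusted p = 0.00958). Sham replicate 2 was high for Ifitm3, which is also expressed in stroma, and without it and starvation replicate 3 the value was -2.23 ± 0.19 (adjusted p = 0.00038). Both calls held whichever library was left out. Other GTPases that attack vacuoles of pathogens also fell: Irgm1 changed by -1.25 ± 0.17 (adjusted p = 0.0105), Gbp7 by -0.97 ± 0.14 (adjusted p = 0.0105) and Gbp6 by -1.89 ± 0.26 (adjusted p = 0.0105). Irgm1 lost its call without sham replicate 3 (adjusted p = 0.0574) and without starvation replicate 2 (adjusted p = 0.0614), Gbp7 without sham replicate 3 (adjusted p = 0.0592) and without starvation replicate 2 (adjusted p = 0.0555), and Gbp6 without sham replicate 3 (adjusted p = 0.0563). Gbp6 overlaps a predicted gene, so its reads may be split. With all libraries none of 17 antigen presentation genes rose and none fell, and without the pair that stood apart 2 rose and 10 fell; the medians of the log2 fold change were -0.43 and -0.57. Macrophage and dendritic cell markers had a mean log2 CPM of 4.42, 4.81 and 4.37 in sham and 4.15, 4.53 and 3.97 in starvation, and their part in these values was not tested. Apol10a, an apolipoprotein L gene chosen after its values were seen, also fell. Apol10a stood at 311, 272 and 335 CPM in sham and 76.4, 128 and 100.1 in starvation (-1.59 ± 0.20, adjusted p = 0.00907). Its call held in every fit that left out a library, and its groups did not overlap.

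Several Paneth cell products fell. These cells sit at the crypt base and secrete alpha-defensins, lysozyme and lectins. Of the 18 Paneth cell genes tested, none rose and 6 fell, with a median log2 fold change of -1.35. The counts became 0 and 10 without the 2 libraries that stood apart, with a median of -0.94. Across all genes 1.14% fell with all libraries and 9.0% without the 2. The list held 29 genes, of which 24 were in the table, so 18 were abundant enough to test. Defa24 stood at 71.95, 204 and 106 CPM in sham and 17.6, 15.1 and 9.72 in starvation. Defa5 stood at 4.52, 3.63 and 4.0 CPM in sham and 0.479, 0.528 and 0.579 in starvation. Itln1 stood at 288, 274 and 331 CPM in sham and 118, 131 and 73.8 in starvation. Starvation values were below sham values for all 3, with starvation replicate 3 lowest for Defa24 and Itln1. The log2 fold changes were -3.17 ± 0.40, -2.92 ± 0.35 and -1.47 ± 0.22 (adjusted p = 0.00958, 0.00822 and 0.0141), and without the 2 libraries -2.44 ± 0.25, -3.05 ± 0.40 and -1.31 ± 0.14. Defa5 was called whichever library was left out, Defa24 lost its call without starvation replicate 2 (adjusted p = 0.0508) and Itln1 without sham replicate 3 (adjusted p = 0.0657). Alpha-defensin genes are near-identical copies, so reads may have been split or dropped among them and the single values are uncertain. Mptx2, a pentraxin of Paneth cells, gave 139, 135 and 127 CPM in sham and 27.8, 36.1 and 9.49 in starvation (-2.45 ± 0.40, adjusted p = 0.0202), and lost its call without sham replicate 3 (adjusted p = 0.0657). Lysozyme, Lyz1, was lowest in starvation replicate 3 and did not pass with all libraries (-1.14 ± 0.43, adjusted p = 0.157), but did without the pair (-0.79 ± 0.13, adjusted p = 0.0041). The mean log2 CPM of the Paneth cell markers was 5.63, 5.64 and 5.58 in sham and 4.84, 4.53 and 3.66 in starvation, and that of the crypt stem cell markers was 5.29, 4.67 and 5.13 in sham and 5.06, 4.88 and 3.51 in starvation.

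Of antimicrobial lectins and surface defence genes, Mbl2 alone was called with all libraries. Across all genes 3.69% were called, and 19.9% without sham replicate 2 and starvation replicate 3. Among 16 genes of this group, the numbers called higher and lower were 1 and 0 (median log2 fold change -1.11), and in the fit without sham replicate 2 and starvation replicate 3 they were 1 and 7 (median -1.32). Mbl2, a soluble mannose-binding lectin, stood at 5.99, 1.28 and 3.33 CPM in sham and 16.4, 20.9 and 43.97 in starvation (2.93 ± 0.53, adjusted p = 0.0266), and it lost its call in 5 of the 9 leave-one-out fits (adjusted p up to 0.0915). Reg3g gave 327, 261 and 232 CPM in sham and 73.7, 107 and 56.3 in starvation, without overlap, but did not pass (-1.79 ± 0.48, adjusted p = 0.0743, and 0.0714 without the pair). Reg3b was at 0.76 ± 0.40 (adjusted p = 0.284). Both encode bactericidal C-type lectins.

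Raet1e and H60b, which encode ligands of NKG2D, the activating receptor of natural killer and some intraepithelial T cells, rose. Raet1e stood at 5.5, 3.2 and 5.41 CPM in sham and 43.8, 35.99 and 7.52 in starvation. H60b stood at 4.71, 3.2 and 4.25 CPM in sham and 35.3, 29.3 and 6.13 in starvation. Starvation replicates 1 and 2 were high, while replicate 3 lay just above the sham libraries. The log2 fold changes were 2.63 ± 0.57 and 2.54 ± 0.56 (adjusted p = 0.0401 and 0.0421), and 2.87 ± 0.28 and 2.86 ± 0.29 without starvation replicate 3 and sham replicate 2. Raet1e lost its call in 8 of the 9 leave-one-out fits (adjusted p up to 0.116) and H60b in 8 of the 9 leave-one-out fits (adjusted p up to 0.121). H60b shares 11% of its exonic bases with Raet1e, so they are not independent counts. Of the 10 listed genes of this group 4 were tested, and the other 2 tested were not called. B cell genes followed the same libraries: Ms4a1, which encodes CD20, stood at 0.491, 0.427 and 0.833 CPM in sham and 61.3, 43.2 and 0.463 in starvation, and did not pass (5.85 ± 1.61, adjusted p = 0.0773). Of the 10 B and plasma cell markers tested, none was called with all libraries and 6 rose without the pair. Over all genes 2.55% rose with all libraries and 10.9% without the pair. Lymphocyte genes chosen after their values were seen included Gimap3, a GTPase of lymphocyte survival, at 27.7, 26.2 and 25.6 CPM in sham and 71.4, 67.2 and 54.6 in starvation (1.28 ± 0.14, adjusted p = 0.00577), and Cd37, a tetraspanin of B cells, at 1.96, 1.81 and 2.0 CPM in sham and 35.7, 25.8 and 3.24 in starvation (3.48 ± 0.75, adjusted p = 0.0397). Starvation replicate 3 lay close to sham for Cd37 and well above it for Gimap3. Gimap3 kept its call in all 9 leave-one-out fits, and Cd37 did not. The part of lymphoid tissue in the sampled strip was not tested.

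Some genes of the extracellular matrix and the muscle gene Acta1 fell (1.14% of all genes tested fell). Col3a1 stood at 85.99, 209.8 and 96.05 CPM in sham and 30.6, 34.8 and 19.9 in starvation (-2.20 ± 0.36, adjusted p = 0.0193). The collagen chaperone Serpinh1 gave 58.2, 157 and 62.6 CPM in sham and 26.5, 26.2 and 15.6 in starvation (-2.02 ± 0.38, adjusted p = 0.0299), and Acta1, the skeletal muscle actin, 19.1, 94.7 and 50.3 CPM in sham and 6.94, 2.64 and 10.9 in starvation (-3.01 ± 0.61, adjusted p = 0.0339). Sham replicate 2 was highest for all 3, and the groups did not overlap. Without sham replicate 2 and starvation replicate 3 the log2 fold changes were -1.48 ± 0.16, -1.20 ± 0.14 and -2.82 ± 0.50, all still called. Acta1 lost its call in 7 of the 9 leave-one-out fits (adjusted p up to 0.1) and Serpinh1 in 6 of the 9 leave-one-out fits (adjusted p up to 0.0902). Of the 12 fibroblast and matrix markers tested 2 fell, and their mean log2 CPM was 5.76, 6.98 and 5.80 in sham and 5.38, 5.26 and 4.58 in starvation. Of the 13 smooth muscle markers none was called, with a median log2 fold change of -2.08 that became -0.61 without the pair. Col3a1 lost its call without sham replicate 3 (adjusted p = 0.0527) and without starvation replicate 2 (adjusted p = 0.0626).

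Of the cell cycle genes, Ccnd1 fell. The share of all genes that fell was 1.14%, and 9.0% without sham replicate 2 and starvation replicate 3. With all libraries none of 32 cell cycle genes rose and 1 fell, and without the pair that stood apart none rose and 11 fell; the medians of the log2 fold change were -0.57 and -0.41. Ccnd1, the G1 cyclin, was the called gene, at 85.8, 62.6 and 96.4 CPM in sham and 40.9, 32.2 and 15.9 in starvation (-1.46 ± 0.30, adjusted p = 0.0359); it lost its call in 6 of the 9 leave-one-out fits (adjusted p up to 0.109), and it shares 23.4% of its exonic bases with a gene on the opposite strand. Mki67, the proliferation antigen, stood at 166, 50.04 and 171 CPM in sham and 126, 109 and 21.6 in starvation, with sham replicate 2 and starvation replicate 3 both low (-0.59 ± 0.59, adjusted p = 0.574). Without these it was at -0.52 ± 0.12 (adjusted p = 0.0157). The stem cell genes Lgr5 and Olfm4 were at 0.03 ± 0.51 and -0.93 ± 0.52 (adjusted p = 0.984 and 0.312). Hormone genes included 2 that fell. Sst, the gene of somatostatin, stood at 23.7, 32.8 and 24.6 CPM in sham and 10.5, 11.9 and 17.5 in starvation (-1.03 ± 0.23, adjusted p = 0.0422). Cck, the gene of cholecystokinin, a hormone released by luminal fat and protein, stood at 20.5, 19.7 and 20.9 CPM in sham and 9.65, 9.08 and 13.8 in starvation (-0.91 ± 0.21, adjusted p = 0.0464). Neither overlapped between groups, and each lost its call in 8 of the 9 leave-one-out fits (adjusted p up to 0.14 for Sst and 0.149 for Cck). The endocrine granule gene Chga was at -0.10 ± 0.14 (adjusted p = 0.689). Of the 19 hormone and endocrine genes tested, none rose and 2 fell, with a median log2 fold change of -0.41. The counts became 0 and 5 without the 2 libraries that stood apart, with a median of -0.23. Muc2 and Dclk1, markers of goblet and tuft cells, did not pass (0.05 ± 0.22 and 0.32 ± 0.30, adjusted p = 0.913 and 0.542).

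Nuclear genes of oxidative phosphorylation were called in both directions, and glycolytic genes were not called with all libraries. As a reference, 2.55% of all genes rose and 1.14% fell, and 10.9% and 9.0% did without sham replicate 2 and starvation replicate 3. Among 39 nuclear genes of oxidative phosphorylation, the numbers called higher and lower were 2 and 2 (median log2 fold change -0.26), and in the fit without sham replicate 2 and starvation replicate 3 they were 3 and 17 (median -0.39). Ndufb10 and Atp5g1 fell (-0.74 ± 0.14 and -0.79 ± 0.16, adjusted p = 0.0293 and 0.0333), and Sdhb and Ndufv2 rose (1.09 ± 0.21 and 0.97 ± 0.20, adjusted p = 0.0299 and 0.0341), so complex I held subunits called in either direction. Ndufb10 and Ndufv2 lost their calls in 8, Atp5g1 in 7 and Sdhb in 6 of the 9 leave-one-out fits (adjusted p up to 0.103, 0.116, 0.108 and 0.0863). Of the 13 mitochondrially encoded genes none was called in this fit. With all libraries none of 19 glycolytic genes rose and none fell, and without the pair that stood apart none rose and 7 fell; the medians of the log2 fold change were -0.33 and -0.33.

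**Figure D4:**
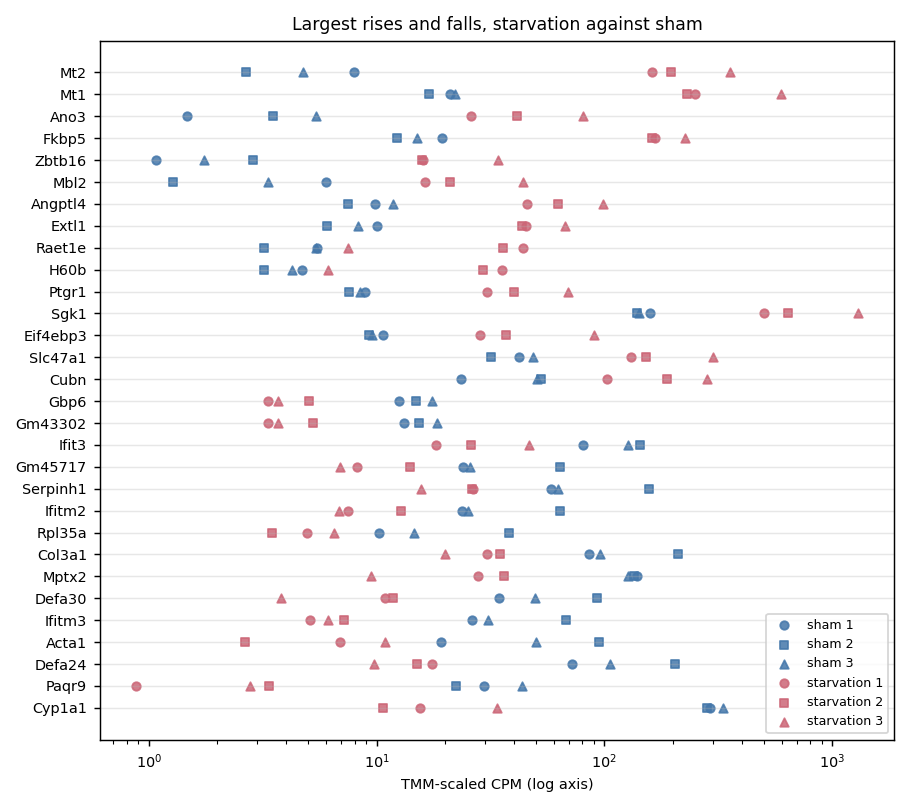
TMM-scaled CPM on a log axis in each sham (blue) and starvation (red) library for the 15 largest rises and 15 largest falls among called genes whose groups did not overlap and whose mean log2 CPM was 3 or more, ordered by log2 fold change. Mt2 and Cyp1a1 are at the ends, and starvation replicate 3 (red triangle) lies near the sham values for Raet1e and H60b.

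Genes with other roles completed the largest changes. Ano3, of the family of calcium-activated channels and scramblases, gave 1.47, 3.52 and 5.41 CPM in sham and 25.9, 41.3 and 80.2 in starvation (3.80 ± 0.54, adjusted p = 0.0105). Extl1, a glycosyltransferase of heparan sulfate synthesis, gave 10.01, 6.08 and 8.25 CPM in sham and 45.2, 43.6 and 66.99 in starvation (2.67 ± 0.30, adjusted p = 0.00652). Ptgr1, which inactivates leukotrienes and prostaglandins, gave 8.93, 7.58 and 8.5 CPM in sham and 30.6, 40.01 and 69.5 in starvation (2.48 ± 0.29, adjusted p = 0.00804). Separation from sham in all 3 libraries was a condition for choosing these rises. They were called whichever library was left out. Paqr9, a membrane receptor of the progestin and adipoQ family, fell, from 29.7, 22.4 and 43.7 CPM in sham to 0.878, 3.38 and 2.78 in starvation (-3.79 ± 0.45, adjusted p = 0.00804), and was likewise called in every such fit. Slc47a1, an exporter of organic cations, rose by 2.24 ± 0.31 (adjusted p = 0.0105), and Eif4ebp3, a repressor of cap-dependent translation, by 2.39 ± 0.38 (adjusted p = 0.0192), though 67.3% of its exonic bases lie in another annotated gene. Slc47a1 lost its call without sham replicate 3 (adjusted p = 0.0518), and Eif4ebp3 in 4 of the 9 fits (adjusted p up to 0.0818).

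Some RNA-processing genes outside the lists rose; these and the ribosomal protein genes were chosen after their values were seen. Of the 4 CDC-like kinases, which phosphorylate splicing factors, 3 rose. Clk1 stood at 42.8, 30.2 and 37.9 CPM in sham and 90.4, 79.7 and 98.8 in starvation. Clk4 stood at 23.8, 17.4 and 21.6 CPM in sham and 55.1, 48.2 and 49.8 in starvation. The groups were separate and tight for both (1.28 ± 0.16 and 1.29 ± 0.15, adjusted p = 0.00884 and 0.00804), and Clk2 was at 1.21 ± 0.21 (adjusted p = 0.0244). The cold-inducible RNA-binding protein gene Cirbp gave 25.5, 25.6 and 23.4 CPM in sham and 62.8, 57.8 and 78.9 in starvation (1.42 ± 0.18, adjusted p = 0.00934), and Rbm3, its close relative, 42.5, 38.1 and 33.8 CPM in sham and 75.4, 65.8 and 59.5 in starvation (0.81 ± 0.14, adjusted p = 0.0244). Of 85 cytosolic ribosomal protein genes tested, 15 fell and none rose (1.14% of all genes fell), with a median log2 fold change of -0.56. Without sham replicate 2 and starvation replicate 3, 26 fell (9.0% of all genes) with a median of -0.27. Rpl15 stood at 169.9, 234 and 187 CPM in sham and 92.2, 97.2 and 86.2 in starvation (-1.10 ± 0.16, adjusted p = 0.0105). These genes have many processed pseudogenes that can take up reads. Ndrg1, a stress-induced growth regulator, rose from 76.5, 107 and 80.4 CPM in sham to 292, 373 and 313 in starvation (1.89 ± 0.20, adjusted p = 0.00577). Clk1, Clk4 and Ndrg1 kept their calls in all 9 leave-one-out fits. Clk2, Cirbp, Rbm3 and Rpl15 did not.

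Gene length went with direction. The median genomic span, from start to end of the gene in the GENCODE M21 annotation of GRCm38, was 24.5 kb over all genes tested, 33.3 kb over called higher genes and 8.2 kb over called lower genes, which had medians of 13 and 5 exon blocks. Without the 2 libraries that stood apart the spans were 35.3 and 13.0 kb. When all genes with a length were divided by span into 5 bins of 2915 genes, 1.1% of the shortest were called higher and 2.88% lower, against 3.74% and 0.343% of the longest. The median log2 fold change went from -0.156 to 0.084 across the bins, and from -0.147 to 0.14 without the pair. For TPN minus sham, which uses the same sham libraries, it went from -0.186 to 0.116, so the trend was not particular to starvation. These shifts are small beside those of the named genes. No source used here gives fragment length or RNA integrity per library, and their part in this pattern was not tested.

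**Figure D5:**
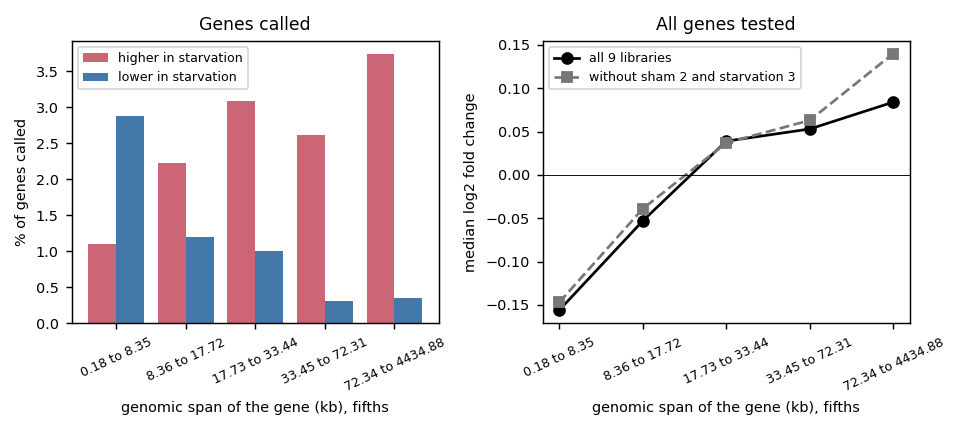
Genes divided into 5 equal bins by genomic span in kb (horizontal axis). The first panel gives the percentage called higher (red) and lower (blue) in starvation, and the second the median log2 fold change of all genes in each bin with all 9 libraries (circles) and without sham replicate 2 and starvation replicate 3 (squares). Calls lower in starvation are most frequent in the shortest bin, at 2.88%.

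Starvation was set directly against TPN, which also leaves the gut without food but supplies nutrients by vein. In that contrast 857 of 14668 genes (5.84%) differed, 572 higher (3.90%) and 285 lower (1.94%) in starvation, and 135 of the 541 genes called against sham were among them. In TPN against sham, 149 of the 374 higher and 66 of the 167 lower genes were also called in the same direction. Another 5 were called in the opposite direction. Both comparisons use the same sham libraries. Cyp1a1, low in starvation, was 6.69 ± 0.59 log2 units higher in starvation than in TPN (adjusted p = 0.00103), with TPN values of 0.33, 0.119 and 0.0801 CPM, so starvation lay between TPN and sham. The TPN libraries held 4, 1 and 1 Cyp1a1 reads, so the size of this difference depends on the prior count of the fit. Cyp2c55 was likewise 3.20 ± 0.24 higher than in TPN (adjusted p = 0.00072). Fkbp5 and Zbtb16 were lower in starvation than in TPN (-1.17 ± 0.20 and -1.58 ± 0.34, adjusted p = 0.014 and 0.0296), although both rose against sham. Mt2, Sgk1 and Angptl4 did not differ from TPN at this threshold (0.89 ± 0.36, 0.01 ± 0.31 and -0.68 ± 0.27, adjusted p = 0.175, 0.989 and 0.165), which does not show that they were equal. Ano3, Extl1 and Cubn were higher than in TPN (2.84 ± 0.51, 2.45 ± 0.30 and 3.01 ± 0.43, adjusted p = 0.0149, 0.00337 and 0.00647), as were Ciart, Per3 and Cirbp (2.7 ± 0.42, 1.30 ± 0.20 and 2.47 ± 0.19, adjusted p = 0.00907, 0.00867 and 0.00072). Defa24, Defa5 and Ifitm3 were lower than in TPN (-3.32 ± 0.40, -3.0 ± 0.35 and -2.73 ± 0.35, adjusted p = 0.00355, 0.00265 and 0.00448). Ifi47 and Gbp7 did not pass (-0.49 ± 0.14 and -0.32 ± 0.14, adjusted p = 0.0774 and 0.191).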

How the data were processed

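Gene-level read counts of protein-coding genes were deposited by the authors as 1 table. Per the submitters' processing notes, reads were checked with FastQC 0.11.8, trimmed with cutadapt 2.9, aligned with STAR 2.7.2e to GRCm38 (mm10) and counted with featureCounts 2.0.0, and DESeq2 1.32.0 was used. Which annotation release and strand setting were used, and how multimapping reads were treated, is not given in the sources used here. Per the labels' protocols, libraries were made from poly(A)-enriched RNA with random priming. Another 9 columns of per-sample values matched no sample label and were not used.

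The 9 libraries, 3 per group, were grouped by treatment label and fitted together with edgeR 4.0.16 in R 4.3.3: genes kept by filterByExpr (14668 of 21868), TMM scaling, quasi-likelihood F test of starvation minus sham, Benjamini-Hochberg adjustment over all genes tested, adjusted p under 0.05. Residual degrees of freedom were 6, and 4 without sham replicate 2 and starvation replicate 3. Errors after ± are standard errors of the log2 fold change. The fit without this pair, DESeq2 1.42.0, limma 3.58.1 voom, other scalings, filters and thresholds, a block on replicate number and fits without each library in turn were alternatives. The procedure was tested on simulated data.

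Named genes were the 15 largest called rises and 15 largest called falls whose groups did not overlap and whose mean log2 CPM was 3 or more, up to 5 called members of each of 33 lists by adjusted p, and a set of well-known markers; others are said to have been chosen after their values were seen. The members, the lists and the pair of libraries left out were all chosen with earlier results of these data known. Gene positions, spans and overlaps are from GENCODE M21 (GRCm38), in which 14575 of the genes tested had a length, and promoters are from RefSeq (GRCm38.p6), 11367 tested genes having one; genes on 1 chromosome were left out of the promoter search. A few genes are not reported here.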

Additional observations from a re-analysis of the deposited data

How the results depend on the processing

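No gene called in the fit of all libraries changed sign under any of the alternatives for which it was fitted. Groups that do not overlap largely fix this in advance. The number of calls moved widely. Against 541 calls (374 higher, 167 lower, 72 among list members), DESeq2 gave 1654 (997, 657 and 159), library totals without TMM 353 (256 higher, 97 lower), a fit of only the 6 sham and starvation libraries 2 (2 higher, 0 lower, 2 among list members; 2327 genes at an unadjusted p under 0.05, 919 of them lower), and an adjusted p under 0.01 left 30 (21, 9 and 11). Voom, the other scalings and the other filters gave 444 to 548 calls. Leaving out the pair of libraries gave 2949 calls (1612 higher, 1337 lower, 266 among list members) and 70 named genes different from TPN against 46. Within that reduced set, alternatives chosen after seeing the data gave 3023 calls with DESeq2, 3076 with library totals and 2677 without the TPN libraries.

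Leaving out 1 library at a time gave 32 (without sham replicate 3) to 1739 calls (without starvation replicate 3), 22 to 945 higher, 10 to 794 lower, 10 to 169 among list members and 14 to 52 named genes different from TPN. Of the 74 named genes called, 13 kept their call in all 9 of these fits, and 14 did without sham replicate 3, 21 without starvation replicate 2 and 74 without starvation replicate 3. Deviations of same-numbered sham and starvation libraries correlated at 0.378, -0.11 and -0.064, and not every library correlated best with its own number. The value for replicate 1 was the highest of any sham and starvation pair, and both replicate 1 libraries had high pancreatic acinar markers. The labels name no pairing, and whether same-numbered libraries were handled together was not tested. A replicate block gave 71 calls (48 higher, 23 lower, 21 among list members), and 26 of the 74 named genes kept their call. At these depths 7200 genes were too low to test.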

Other observations

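Further groups, all chosen after their values were seen, are given beside the shares over all genes tested, of which 2.55% rose and 1.14% fell, and 10.9% and 9.0% without sham replicate 2 and starvation replicate 3. Of 9 apolipoprotein L genes tested 3 fell and none rose, and 7 fell without the pair. Of 38 ABC transporter genes 6 rose and none fell, among them Abca1, which exports cholesterol, and Abcg8, and without the pair 10 rose and 5 fell. Of 8 GIMAP GTPases, which act in lymphocytes, 2 rose, and 6 did without the pair, where B cell markers were also high in both starvation libraries left.

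Single genes seen in the same way included the following. Cxcl14, a chemokine of epithelium and stroma, stood at 67.3, 67.7 and 61.7 CPM in sham and 23.8, 26.7 and 17.1 in starvation (-1.54 ± 0.20, adjusted p = 0.0105). Hdc, which makes histamine, stood at 2.85, 2.35 and 3.17 CPM in sham and 8.78, 10.98 and 14.6 in starvation (2.03 ± 0.30, adjusted p = 0.0138), and it was higher in starvation than in TPN (2.30 ± 0.30, adjusted p = 0.00512). Groups were separate for both genes. N4bp2l1 rose from 21.3, 13.02 and 21.8 CPM in sham to 65.5, 66.1 and 73.7 in starvation (1.87 ± 0.20, adjusted p = 0.00577). The bile acid importer gene Slc10a1, known from liver, was low but separate, at 1.86, 2.56 and 1.42 CPM in sham and 4.79, 7.18 and 15.04 in starvation (2.20 ± 0.45, adjusted p = 0.0341). Ripk3, a kinase of necroptosis, stood at 22.97, 18.99 and 22.99 CPM in sham and 12.5, 13.9 and 10.1 in starvation (-0.83 ± 0.19, adjusted p = 0.0473). Cxcl14 and N4bp2l1 kept their calls in all 9 leave-one-out fits. Hdc, Slc10a1 and Ripk3 did not.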
